A study of Mus musculus with 2 samples.

Results

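Potassium channel genes were taken as every gene whose symbol begins with Kcn, which gave 94 of the 20634 genes listed for whole mouse uterus on gestational day 4. The comparison was of total RNA in 1 library from Mettl3 f/f uterus with 1 library from Mettl3 ed/ed uterus, from females of 6 to 8 weeks mated with fertile males, with the day of the vaginal plug as day 1. The labels give the genotypes only as f/f and ed/ed, without the Cre driver, the cell type in which Mettl3 was altered, the strain or the number of animals in a library. Mettl3 encodes the catalytic subunit of the complex that writes N6-methyladenosine on RNA, and its FPKM was 10.6 in f/f and 10.2 in ed/ed, so its transcript level did not separate the libraries. The deposited values are taken as FPKM, which scales the fragments of a gene by transcript length and library depth, so levels can be compared between genes. Where a pair of values is given, the first is from f/f and the second from ed/ed. Each genotype has 1 library, so no replicate check, test or spread between animals could be given, and every difference below is between these 2 libraries.

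Potassium channels let potassium leave the cell along its gradient and so set the membrane potential. In the uterus they are known for keeping the smooth muscle of the myometrium quiet, for setting vascular tone, and for driving ion and fluid movement across the luminal and glandular epithelium. The family falls into voltage-gated channels, inward rectifiers, 2-pore-domain leak channels and calcium-activated channels, each built of pore-forming subunits, and of modifier or accessory subunits that make no pore of their own but alter one. The symbols of the table spanned 19 letters after Kcn, and 12 letters held a gene at 1 FPKM or more in either library.

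The pore-forming subunits share a short signature, the selectivity filter, through which potassium passes in single file. It was searched as 5 codons in the longest coding sequence of each gene (GENCODE M21, GRCm38), for threonine or serine, then valine, isoleucine, leucine or methionine, then glycine, then tyrosine or phenylalanine, then glycine. Of the 23 genes that reached 1 FPKM in at least 1 library, 16 held it, against 0.772% of 21901 coding genes. The 7 without it were the accessory genes Kcnab1, Kcnab2, Kcne3, Kcne4, Kcnip3 and Kcnmb1, and the leak channel gene Kcnk1, whose filter is known to depart from the common form. The stretches below show the filter in members with log2 ratios of either sign. Each has 45 bases of coding sequence, 5′ to 3′ on the strand of the gene, with the filter codons in capitals.
Kcnc4: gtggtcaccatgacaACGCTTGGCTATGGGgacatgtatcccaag
Kcng1: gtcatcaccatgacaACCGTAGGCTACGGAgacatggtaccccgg
Kcng3: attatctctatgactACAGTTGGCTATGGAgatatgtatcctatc
Kcnh2: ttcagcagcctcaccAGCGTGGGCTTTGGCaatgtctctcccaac
Kcnh3: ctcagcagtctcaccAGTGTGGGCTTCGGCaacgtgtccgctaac
Kcnj2: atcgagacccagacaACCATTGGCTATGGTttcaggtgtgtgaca
Kcnj8: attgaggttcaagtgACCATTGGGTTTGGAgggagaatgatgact
Kcnn4: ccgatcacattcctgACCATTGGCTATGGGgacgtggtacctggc
The Kcnc4 stretch lies in exon 2 at chr3:107447784-107447828 on the minus strand. The Kcng1 stretch lies at chr2:168262626-168262670 and the Kcng3 stretch at chr17:83587899-83587943, both on the minus strand. Those of Kcnh2 and Kcnh3 lie at chr5:24325540-24325584 on the minus strand and chr15:99232914-99232958 on the plus strand. The inward rectifier stretches lie at chr11:111072192-111072236 for Kcnj2, on the plus strand, and chr6:142566433-142566477 for Kcnj8, on the minus strand. The Kcnn4 stretch lies at chr7:24379183-24379227 on the plus strand. In runs of 50 bases, 0 of the 3618 of Kcnc4 transcripts and 0 of the 2014 of Kcne3 transcripts occurred in a transcript of another gene, on either strand.

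Most potassium channel genes were listed at 0 or under 1 FPKM in both libraries. Kcne3, which encodes a single-pass accessory subunit, was at 16.7 FPKM in f/f against 68.6 in ed/ed. Kcnc4, which encodes a fast voltage-gated pore, was at 8.44 FPKM in f/f against 0.168 in ed/ed. Kcng4, which encodes a modifier subunit, was at 1.83 FPKM in f/f against 0.356 in ed/ed. The most abundant member in both libraries was Kcnk1, a leak channel gene, at 69.3 and 92.6 FPKM.

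Of the 94 genes, 21 were listed at 0 in both libraries (22.3%, against 26.4% of all genes), 50 were above 0 but under 1 FPKM in both, and 23 (24.5%) were at 1 FPKM or more in either library. The share of all genes at that level was 59.0%, or 12165 genes. For these genes 1 FPKM was added to each value and the log2 of ed/ed over f/f was taken, which understates how far low genes differ. With no test to be had, a ratio of at least 2-fold on that scale was called higher or lower. Of the 23 genes, 1 was called higher in ed/ed (Kcne3), beside 2.68% of all genes, and 2 were called lower (Kcnc4 and Kcng4), beside 6.22% of all genes. The 3 called genes are 13.04% of the members, beside 8.90% of all genes. The median log2 ratio of the 23 was -0.35, against -0.26 over all genes. Of the 23, 14 had a log2 ratio under 0, beside 70.4% of all genes. These shares lie near the background. Members that reached 1 FPKM in 1 library alone had to differ to some degree, so the counts support nothing by themselves.

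**Figure D1:**
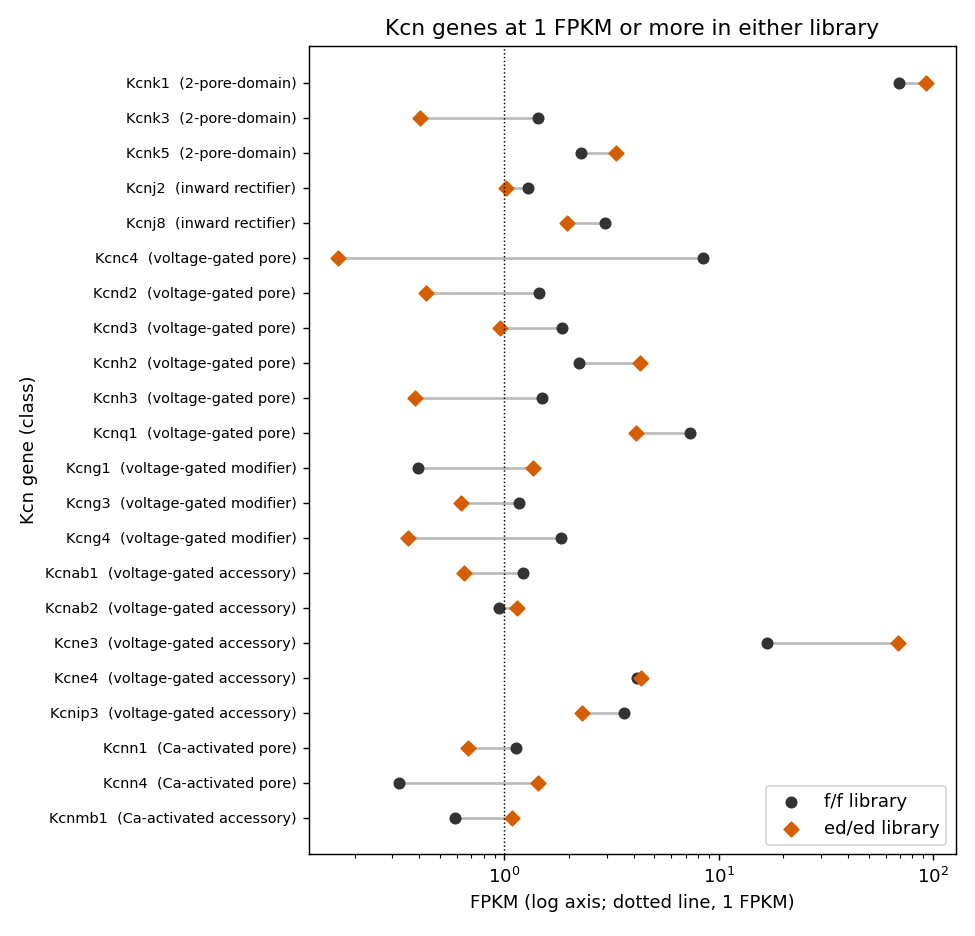
FPKM on a log axis of 22 of the 23 Kcn genes that reached 1 FPKM, with the f/f library as circles, the ed/ed library as diamonds and a line joining both values of a gene. Kcnk1 and Kcne3 lie far to the right of the others, and Kcnc4 has the longest line, from 8.44 to 0.168 FPKM.

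The calls depended on the pseudocount and the scaling. With 0.1 FPKM added in place of 1, 3 members were called higher (Kcne3, Kcng1 and Kcnn4) and 5 lower (Kcnc4, Kcnd2, Kcng4, Kcnh3 and Kcnk3). Bringing ed/ed to the sum of f/f kept 1 higher and 2 lower. Scaling by the median ratio, the upper quartile or reference genes raised ed/ed by 0.28, 0.22 and 0.33 on the log2 scale, and each gave 2 higher (Kcne3 and Kcnn4) and 1 lower (Kcnc4). Each of the 4 other scalings raised ed/ed, so members with a log2 ratio above 0 could not change sign under them. The 14 members below 0 kept their sign too, under a rise of at most 0.33. That rise was too small to turn those further below 0 than this. Low members also rest on few fragments. The steps between low FPKM values put the depth at about 18400000 fragments (f/f) and 17300000 (ed/ed). Intervals below are 95% exact binomial intervals of the FPKM ratio from fragments estimated in this way, covering counting error only. They lay wholly below 1 for 13 members, wholly above 1 for 7 and spanned 1 for Kcnab2, Kcne4 and Kcnj2.

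**Figure D2:**
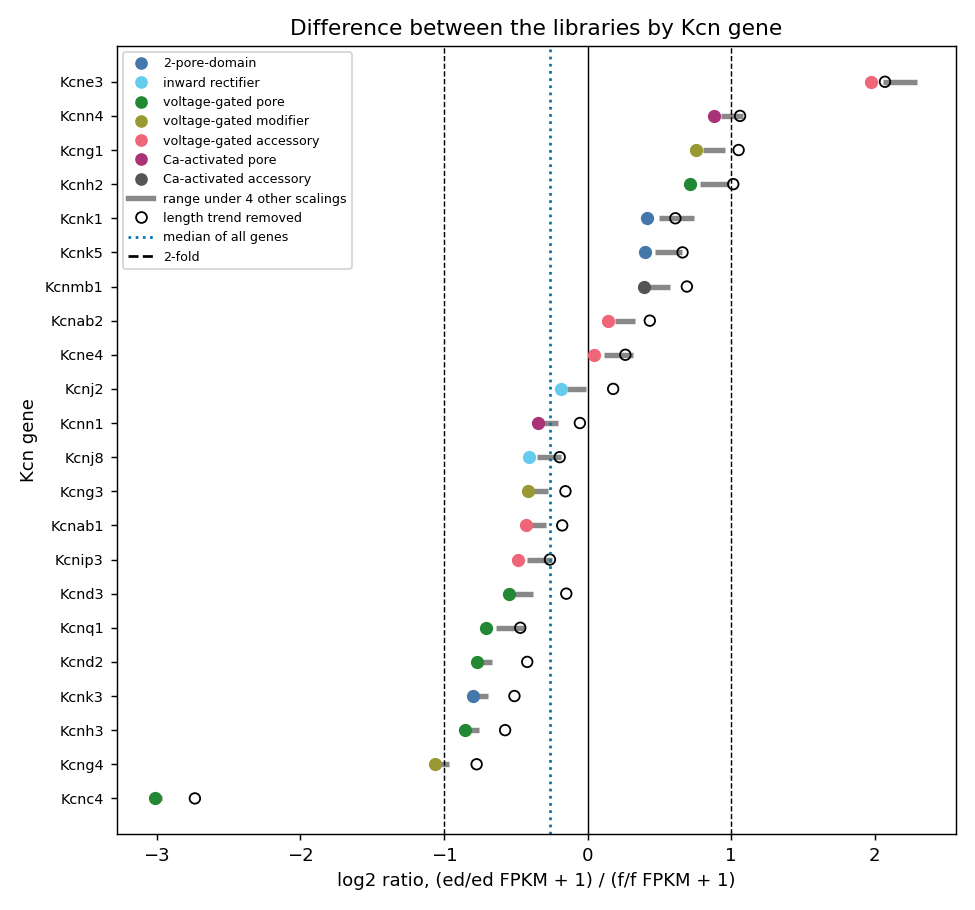
Log2 ratio of 22 of the 23 Kcn genes, with dots coloured by class, grey bars for the range under 4 other scalings of ed/ed, and open circles for the ratio with the trend on transcript length removed. Dashed lines mark 2-fold and the dotted line the median of all genes at -0.26; only Kcne3, Kcnc4 and Kcng4 have their dots beyond 2-fold.

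The 2-pore-domain channels carry the background potassium leak. Of 14 Kcnk genes 6 were listed at 0 in both libraries and 3 reached 1 FPKM. Kcnk1 made up 47.6% of the summed FPKM of all Kcn genes in f/f and 45.8% in ed/ed. It was 1.34-fold higher in ed/ed (interval 1.27 to 1.41; log2 ratio 0.41), within the 2-fold rule. Kcnk1 stood at or above 91.3% of expressed genes in f/f and 94.4% in ed/ed, so it was an abundant transcript of this tissue in both libraries. Of its exon bases, 8.01% overlap an antisense gene (Gm45875), and reads of both cannot be told apart where strand is not kept. Kcnk5, a leak channel known from epithelia and sensitive to extracellular pH, was at 2.27 and 3.31 FPKM. Kcnk3, an acid-sensitive leak channel known from vascular smooth muscle and nerve cells, went the other way, at 1.44 and 0.404 FPKM (ratio 0.281, interval 0.174 to 0.444). Kcnk3 passed the filter in f/f alone, so the filter fixed its direction, and its estimate rests on 94 and 25 fragments.

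The inward rectifiers pass potassium more readily into than out of the cell and stabilise the resting potential. Of 15 Kcnj genes, 4 were listed at 0 in both libraries and 2 reached 1 FPKM. Kcnj8, which encodes the pore of the ATP-sensitive channel of vascular smooth muscle and pericytes, was at 2.94 and 1.97 FPKM (ratio 0.669, interval 0.498 to 0.896). Its sulfonylurea receptor partner Abcc9 was at 1.95 and 1.25 FPKM, and the partner Abcc8 at 0.214 and listed at 0. Both subunits of the vascular channel had the lower value in ed/ed, within 2-fold, at log2 ratios of -0.41 for Kcnj8 and -0.39 for Abcc9. These lie near the median of -0.26 over all genes, and scaling by the reference genes brought Kcnj8 to -0.18. In a bulk sample fewer cells of a type and less RNA per cell cannot be told apart. All 8 pericyte markers, of which Abcc9 is one, were lower in ed/ed, beside 70.4% of all genes with a log2 ratio under 0. Notch3 and Vtn passed the filter in f/f alone, so it fixed their sign. The summed level of the 8 was 138 and 64.1 FPKM, none at 0, and the part of this in the Kcnj8 difference was not tested. Kcnj2, a strong inward rectifier, was at 1.29 and 1.02 FPKM, a difference within its counting interval of 0.594 to 1.04. Its log2 ratio of -0.19 became 0.18 once the length trend was removed.

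The voltage-gated pores open on depolarisation and end electrical activity. Of 30 such genes (Kcna, Kcnb, Kcnc, Kcnd, Kcnh and Kcnq), 7 were listed at 0 in both libraries and 7 reached 1 FPKM. Of these 7, 6 had a log2 ratio below 0 and 1 above, beside 70.4% of all genes below 0. Kcnc4, Kcnd2, Kcnd3 and Kcnh3 passed the filter in f/f alone, so it fixed their sign. The summed FPKM of the class was 28.5 in f/f and 14.2 in ed/ed. Kcnc4 accounted for more of that gap than any other gene of the class.

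Kcnc4 (ENSMUSG00000027895, chr3:107438303-107459552, GRCm38, minus strand) encodes a Shaw-type channel that opens at strong depolarisation and inactivates fast. Its levels of 8.44 and 0.168 FPKM correspond to 530 and 10 estimated fragments, a ratio of 0.0199 with an interval of 0.00957 to 0.0372. The log2 ratio was -3.01, ranged from -3.00 to -2.96 under the 4 other scalings and was -2.73 with the length trend removed. Of the expressed genes, 0.0986%, Kcnc4 included, had a log2 ratio as low or lower. Kcnc4 had rank 3 among the 94 Kcn genes in f/f and rank 44 in ed/ed. In the f/f library it stood at or above 41.9% of expressed genes, so the difference lies between a moderate level and one near the limit of detection. GENCODE lists 1 transcript for the gene, and no exon overlap with another gene was found.

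Of its Shaw-type relatives, Kcnc2 was at 0.710 and 0.0687 FPKM, under the filter, and Kcnc1 was listed at 0 in both libraries.

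Kcnq1 (chr7:143106362-143427042, plus strand) encodes the slow delayed rectifier of epithelia and heart, which pairs with Kcne subunits. It was at 7.35 and 4.12 FPKM (ratio 0.561, interval 0.471 to 0.669; log2 ratio -0.71). The gene lies in an imprinted region and 2.96% of its exon bases overlap the antisense RNA gene Kcnq1ot1. The other 4 Kcnq genes stayed under 1 FPKM in both libraries.

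The Shal-type genes Kcnd2 and Kcnd3 carry the transient outward current of muscle and nerve. Kcnd2 was at 1.45 and 0.431 FPKM (ratio 0.298, interval 0.204 to 0.439), and Kcnd3 at 1.86 and 0.954 (ratio 0.513, interval 0.407 to 0.646). Kcnd1 was at 0.726 and 0.549 FPKM. Of their known calcium-binding partners, Kcnip3 was at 3.63 and 2.31 FPKM (ratio 0.637, interval 0.493 to 0.824). The others were under the filter, with Kcnip1 at 0.583 and 0.174 FPKM, Kcnip2 at 0.596 and 0.497, and Kcnip4 the other way at 0.171 and 0.308. The membrane partner Dpp6 was at 1.40 and 0.149 FPKM. Dpp6, from the list of other potassium handling genes, passed 2-fold with a log2 ratio of -1.06, while both pores and Kcnip3 lay within 2-fold. The counting interval of Kcnd1 spanned 1, from 0.515 to 1.12.

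Among the ether-a-go-go genes, Kcnh2 and Kcnh3 reached 1 FPKM. Kcnh2, which encodes the rapid delayed rectifier known from heart and from uterine smooth muscle, was at 2.23 and 4.29 FPKM (ratio 1.92, interval 1.58 to 2.34). It was the only voltage-gated pore among the 7 with a log2 ratio above 0, at 0.71, and it reached 1.01 with the length trend removed. Kcnh3, a channel of forebrain neurons, was at 1.498 and 0.380 FPKM (ratio 0.254, interval 0.156 to 0.410). Kcnh3 passed the filter in f/f alone, so the filter fixed its direction. Beside Kcnh2, 8 of the 11 expressed myometrium markers had a log2 ratio above 0, against 29.6% of all genes. All 12 markers were matched with none at 0, and their summed level was 561 and 883 FPKM. The part of this in the Kcnh2 difference was not tested.

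The modifier subunits Kcng, Kcnf, Kcns and Kcnv join pores of the Kcnb type and shift their gating. Of 10 such genes 2 were listed at 0 in both libraries and 3 reached 1 FPKM, all of them Kcng genes. Kcng4 (chr8:119623854-119635680, minus strand) was at 1.83 and 0.356 FPKM, from 119 and 22 estimated fragments (ratio 0.195, interval 0.119 to 0.312). Its log2 ratio of -1.06 lay just past the 2-fold rule and moved inside it under 3 of the 4 other scalings (highest -0.96) and with the length trend removed (-0.77). Kcng3 was at 1.17 and 0.629 FPKM. Kcng1 was the reverse, at 0.396 and 1.36 FPKM (ratio 3.43, interval 2.22 to 5.43; log2 ratio 0.76). Kcnb2, a pore they are known to join, was under the filter at 0.632 and 0.199 FPKM. Kcng1 passed the filter in ed/ed alone, and Kcng3 and Kcng4 in f/f alone. The filter thus fixed the direction of each.

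**Figure D3:**
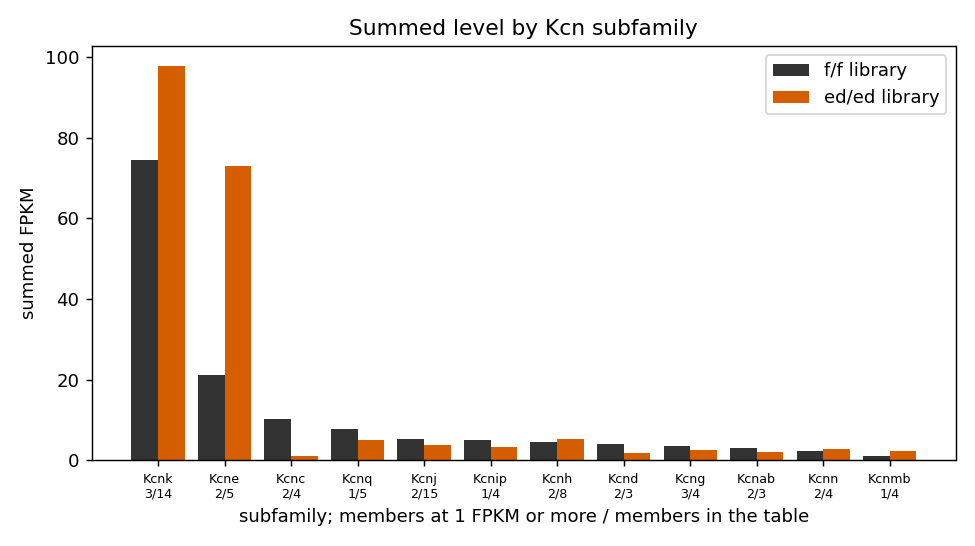
Summed FPKM of each Kcn subfamily with a gene at 1 FPKM or more, in f/f (dark bars) and ed/ed (orange bars), with the number of members at 1 FPKM or more over the number in the table under each name. The Kcne sum is 21.1 FPKM for f/f against 72.9 for ed/ed.

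Among the accessory subunits of voltage-gated channels, 12 genes of which 5 reached 1 FPKM, the summed FPKM was 29.1 in f/f and 78.1 in ed/ed, more than any other class differed. The higher sum came from Kcne3. The Kcnab genes summed to 3.06 and 1.97 FPKM and the Kcnip genes to 4.98 and 3.29, the other way. Kcne3 (ENSMUSG00000035165, chr7:100176502-100184869, plus strand) encodes a subunit known to hold Kcnq1 channels open in the basolateral membrane of secretory epithelia. Its levels of 16.7 and 68.6 FPKM correspond to 330 and 1270.0 estimated fragments, a ratio of 4.10 with an interval of 3.63 to 4.64. The log2 ratio was 1.97, ranged from 2.06 to 2.30 under the 4 other scalings and was 2.07 with the length trend removed. Of the expressed genes, 99.7% had a log2 ratio at or below that of Kcne3. Kcne3 made up 11.5% of the summed Kcn FPKM of the f/f library and 33.9% of that of the ed/ed library. Together with Kcnk1 it made up 59.1% and 79.6%. The FPKM of Kcne3 was 2.28 times that of its partner Kcnq1 in f/f and 16.6 times in ed/ed.

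RefSeq gives more than 1 start for Kcne3, and the data do not show which was used. The 250 bases before the downstream start (chr7:100178433-100178682, plus strand, GRCm38.p6), which overlap 0 exon bases, are printed here for the member with the highest log2 ratio, with GC boxes (GGGCGG, either strand) in capitals.
Kcne3: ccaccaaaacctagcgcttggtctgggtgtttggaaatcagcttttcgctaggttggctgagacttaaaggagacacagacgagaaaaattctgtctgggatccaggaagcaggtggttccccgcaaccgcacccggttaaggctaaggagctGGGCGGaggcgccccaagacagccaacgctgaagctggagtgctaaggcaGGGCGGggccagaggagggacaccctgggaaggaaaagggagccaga
A GC box was found in 32.7% of the 32851 RefSeq stretches of that length, and in 12 of the 26 stretches that belong to 18 members at 1 FPKM or more. A CCAAT box (CCAAT, either strand) was found in 33.8% of all stretches and in 7 of those 26. The printed stretch holds a GC box and no CCAAT box, whereas the stretch before the other Kcne3 start holds a CCAAT box and no GC box. These are matches of letters and no binding was measured.

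Markers of epithelium and of glands were measured beside Kcne3. All 12 epithelial markers were expressed, 7 with a log2 ratio above 0 and 5 below, beside 29.6% of all genes above 0. Their summed level was 2873 and 2933 FPKM. Of 8 gland markers 4 were expressed, all with a log2 ratio above 0. Foxa2, Sox9 and Aqp5 reached 1 FPKM in ed/ed alone, so the filter fixed their sign. Only Spink1, at 15.7 and 36.0 FPKM, passed in both libraries. The summed level of the gland markers was 17.4 and 44.9 FPKM, with the defining genes Prss28 and Prss29 listed at 0 in both libraries. The part of the epithelial and gland levels in the Kcne3 difference was not tested.

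Kcne4, an accessory subunit known to inhibit Kcnq1, was at 4.17 and 4.33 FPKM, within its counting interval of 0.843 to 1.29. The remaining Kcne genes were scarce, with Kcne1 at 0.0873 and listed at 0, Kcne1l at 0.0911 and listed at 0, and Kcne2 listed at 0 in both. Of the beta subunits, which bind the cytoplasmic face of Shaker-type channels, Kcnab1 was at 1.22 and 0.649 FPKM, Kcnab2 at 0.946 and 1.15, and Kcnab3 at 0.898 and 0.177. The Shaker-type pores themselves were scarce, with 3 of 8 Kcna genes listed at 0 in both libraries and the highest, Kcna6, at 0.309 and 0.222. Kcnab1 and Kcnab2 were thus listed above every Kcna gene in both libraries.

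Calcium-activated channels couple intracellular calcium to hyperpolarisation. Kcnn4, which encodes the intermediate-conductance channel of epithelia, blood vessels and immune cells, was at 0.322 and 1.43 FPKM, from 10 and 43 estimated fragments (ratio 4.44, interval 2.26 to 10.2). Its log2 ratio of 0.88 stayed inside 2-fold as deposited and reached 1.08 under the reference gene scaling. Beside it, 7 of 8 expressed macrophage markers had a log2 ratio above 0, against 29.6% of all genes. The summed level of the macrophage markers was 188 and 350 FPKM, with Cd163 listed at 0 in both. The part of this in the Kcnn4 difference was not tested. Kcnn1, a small-conductance channel gene, was at 1.13 and 0.673 FPKM, and its relatives Kcnn2 and Kcnn3 were at 0.187 and 0.348 and at 0.606 and 0.366. Kcnn3 is known for its part in uterine relaxation, and it stayed under the filter in both libraries.

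The large-conductance channel, the best known potassium channel of the myometrium, was scarce in these libraries. Its pore gene Kcnma1 was at 0.148 and 0.212 FPKM. Its smooth muscle beta subunit Kcnmb1 was at 0.590 and 1.08 FPKM (ratio 1.84, interval 1.24 to 2.73), so that the beta subunit was 4.00 and 5.12 times the pore. Kcnmb4 was at 0.437 and 0.651 FPKM, Kcnmb3 at 0.1004 and 0.445, and Kcnmb2 was listed at 0 and at 0.102. Kcnmb1 lay within 2-fold on the log2 scale. The other 4 of these 5 genes were under the filter, where 2-fold cannot be reached with 1 FPKM added. The counting interval of the pore gene spanned 1 (0.884 to 2.34), as did that of Kcnmb4 (0.608 to 4.07). That of Kcnmb3 lay just above 1 (1.03 to 21.8), from 3 and 11 estimated fragments. Lrrc26, a partner that lets the channel open without depolarisation, was at 3.20 and 0.368 FPKM, a log2 ratio of -1.62.

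**Figure D4:**
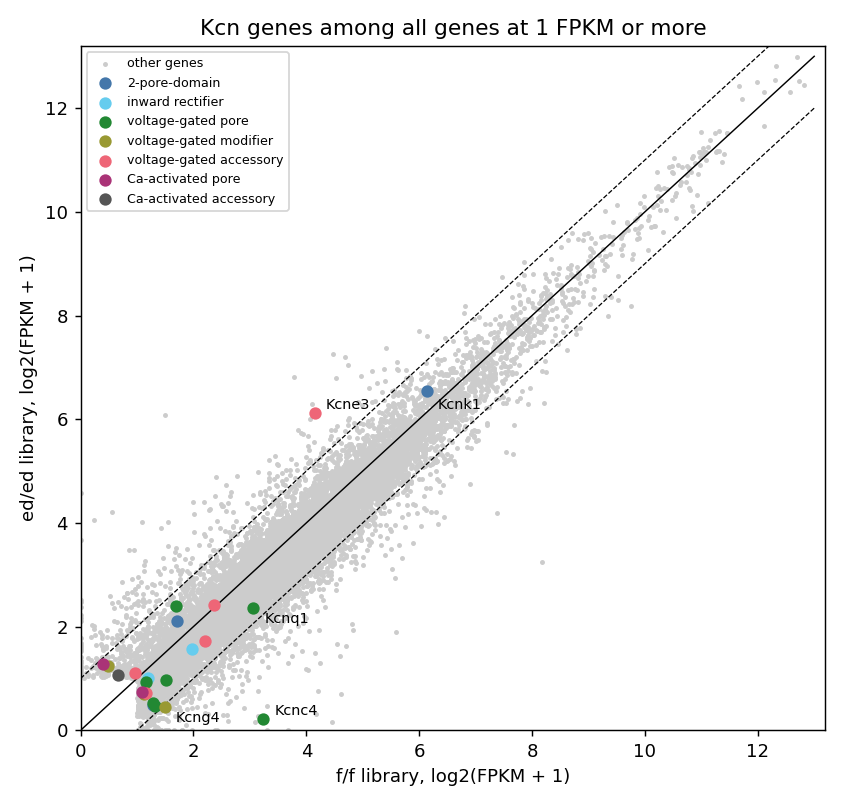
Log2(FPKM + 1) of the ed/ed library against the f/f library for the 12165 genes that reached 1 FPKM, with Kcn genes coloured by class, the solid line at equality and dashed lines at 2-fold. Kcne3 lies above the upper dashed line, Kcnc4 far below the lower one, and most other Kcn genes sit in the lower left corner.

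The libraries differed in which members reached 1 FPKM, although all 23 were above 0 in both. Of the 23 genes, 9 were at 1 FPKM or more in both libraries, 10 in f/f only (beside 4.95% of all genes) and 4 in ed/ed only (beside 2.38%). Those in f/f only included Kcnab1, Kcnc4, Kcnd2, Kcnd3, Kcng3, Kcng4, Kcnh3, Kcnk3 and Kcnn1, and those in ed/ed only were Kcnab2, Kcng1, Kcnmb1 and Kcnn4. Most members have low values, which makes crossing 1 FPKM more common, so the background was also taken, after the values were seen, over genes whose higher value was 1 to 3 FPKM. There 30.2% of 1818 genes were at 1 FPKM or more in f/f only and 13.5% in ed/ed only, and of the 15 members in that range 9 and 4 were. At the filter itself, the members just inside were Kcnmb1 (0.590 and 1.08 FPKM), Kcnn1 (1.13 and 0.673) and Kcnab2 (0.946 and 1.15). Those just outside were Kcnab3 (0.898 and 0.177), Kcnk6 (0.730 and 0.674) and Kcnd1 (0.726 and 0.549).

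The 50 members above 0 but under 1 FPKM summed to 12.1 and 9.27 FPKM, with a median of their higher values of 0.202 FPKM. Of these, 29 were higher in f/f and 21 in ed/ed, that is 58.0% in f/f, beside 55.8% of the 3021 genes of that level. Among them 6 were listed at 0 in ed/ed only (Kcna1, Kcne1, Kcne1l, Kcnj9, Kcnrg and Kcns3) and 4 in f/f only (Kcnj12, Kcnmb2 and Kcnq3 among them). The 21 listed at 0 in both libraries were Kcna3, Kcna7, Kcna10, Kcnc1, Kcne2, Kcnh4, Kcnh5, Kcnh8, Kcnj1, Kcnj5, Kcnj11, Kcnj16, Kcnk9, Kcnk10, Kcnk12, Kcnk15, Kcnk16, Kcnk18, Kcns1, Kcnt1 and Kcnv1. They include channels best known from kidney, pancreas and nerve, such as Kcnj1, the apical channel of the kidney tubule, and Kcnj11, the pore of the ATP-sensitive channel of the pancreatic beta cell. An exact 0 in such a table can also be an estimate that failed.

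Other genes that handle potassium were taken from a list of 40 channel partners, sodium pump subunits, cation chloride cotransporters and related channels, of which 24 were expressed. Of these 24, 1 was called higher, beside 2.68% of all genes, and 2 lower, beside 6.22%. The median log2 ratio was -0.37 against -0.26 over all genes. The sodium pump, which loads the cell with the potassium that channels release, was abundant, with the beta subunit Atp1b1 at 626 and 332 FPKM. Its regulators Fxyd4, at 1856 and 1037 FPKM, and Fxyd3, at 244 and 312, went in opposite directions within 2-fold. Fxyd2 was the gene called higher, at 1.16 and 4.24 FPKM. The 2 called lower were Dpp6 and Lrrc26, which passed the filter in f/f alone, so it fixed their direction. Slc12a2, the cotransporter that brings potassium in with sodium and chloride, was at 62.8 and 63.1 FPKM. The HCN channels were scarce, with 0 of 4 at 1 FPKM.

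**Figure D5:**
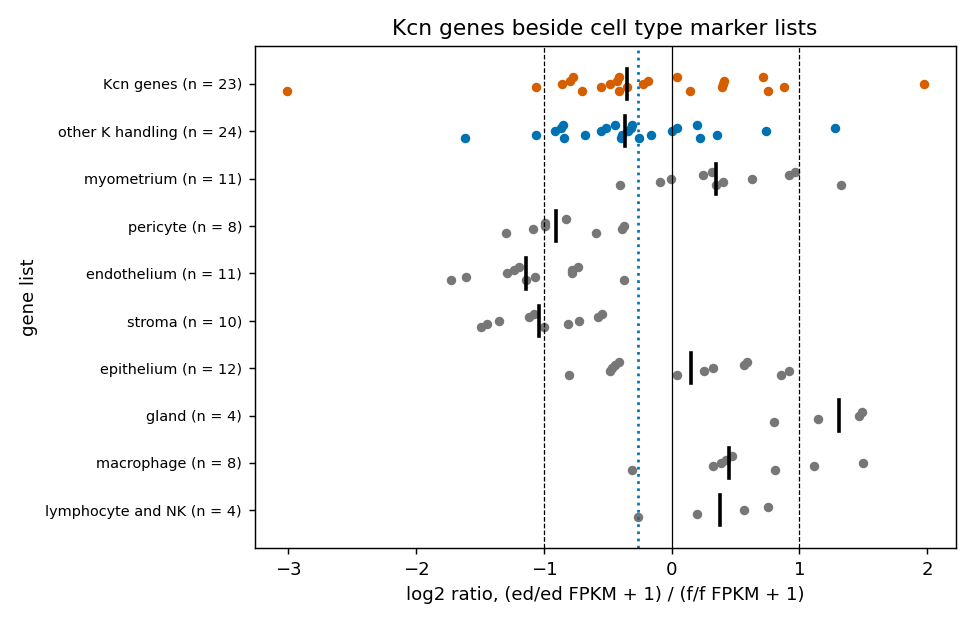
Log2 ratio of each expressed gene of the Kcn family, of the list of other potassium handling genes and of cell type marker lists with at least 3 expressed members, with the median of each list as a black bar, dashed lines at 2-fold and the dotted line at the median of all genes. The Kcn genes span from -3.01 to 1.97, more widely than any marker list shown, with a median of -0.35. Kcnc4 and Kcne3 set these ends, and the other Kcn genes span from -1.06 to 0.88. A range widens with the number of genes, and the 23 Kcn genes compare with at most 12 in a marker list.

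The labelled tissue was checked against markers. Epithelial, stromal, myometrial and endothelial markers were all present in both libraries. All 10 stromal and all 11 expressed endothelial markers were lower in ed/ed, beside 70.4% of all genes with a log2 ratio under 0. Their summed levels were 1221 and 595 FPKM and 276 and 134 FPKM, none at 0. Nerve and glia markers were at or near 0, with 4 of 10 listed at 0 in both libraries and a summed level of 4.25 and 3.25 FPKM. Of 10 lymphocyte markers 4 were expressed, and of 6 mast cell markers 1. The part of the stromal and endothelial levels in the differences of single Kcn genes was not tested.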

How the data were processed

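Whole uterus of gestational day 4 was measured by RNA-seq in 1 library per genotype. The authors deposited 1 value per gene, taken here as FPKM, since the submitters' processing notes name HISAT2 2.2.1 and Cufflinks 2.2.1 and the values are decimals with exact zeros. The header names no unit. The notes name builds mm9 and mm10 without a role. The annotation, filters, multi-read settings and strand were not stated in any source used here. FPKM of overlapping genes can therefore share reads.

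Values were compared as log2 with a pseudocount of 1 FPKM among genes that reached 1 FPKM, with a 2-fold rule in place of a test. Members, gene lists and the rule for named genes (every member that reached 1 FPKM, and of the other potassium handling genes those 2-fold apart and the 4 most abundant) were chosen with earlier results of these data known. Coordinates, lengths and sequences came from GENCODE M21 on GRCm38, which matched 94 of 94 members, and from RefSeq. Depth came from the step between low FPKM values, 0.0544 and 0.0579, after multiplication by transcript length less 250 nt in genes with 1 transcript over 1000 nt. The low values clustered on multiples only loosely (mean cosine of the phase 0.383 and 0.399, where 1 is exact), so fragments are approximate. Analyses used Python 3.11.15, SciPy 1.17.1 and statsmodels 0.14.6, and the calculations were tested on simulated data. Other pseudocounts, filters, scalings, a length correction and a 1.5-fold rule were tried as alternatives. Values of some single genes are not reported here, although counts, medians and sums include them.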

Additional observations from a re-analysis of the deposited data

How the results depend on the processing

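No paired analysis was possible because each genotype has 1 library. As deposited, 1 Kcn gene was called higher, 2 lower, and the median log2 ratio was -0.35. A pseudocount of 0.1 FPKM gave 3 higher, 5 lower and a median of -0.56, and one of 5 FPKM gave 1 lower and -0.11. Without a filter (73 members) the median was -0.054, and a filter at 5 FPKM (4 members) gave 1 lower and -0.15. Scaling by the median ratio, the upper quartile and the reference genes gave 2 higher and 1 lower each, with medians of -0.22, -0.26 and -0.18. Removing the length trend, which also centres the ratios, gave 4 higher (Kcne3, Kcng1, Kcnh2 and Kcnn4), 1 lower (Kcnc4) and a median of -0.053. It turned the sign for 2 members, both within 2-fold. A 1.5-fold rule gave 4 higher and 6 lower. Kcne3 was called higher and Kcnc4 lower under every setting named here, whereas Kcng4 was called lower as deposited, without a filter, with the sum scaling, with the pseudocount of 0.1 FPKM and with the 1.5-fold rule. The cause of these shifts was not tested. Of 161 values of single members under the alternatives, 137 moved by less than the counting interval, 24 by more, and 0 called members changed sign. Another pseudocount cannot change a sign, and the scalings raised ed/ed by at most 0.33 on the log2 scale. Depth limits members under 1 FPKM, which rest on few fragments.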
